A study of Mus musculus with 9 samples.

Results

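Signalling by bone morphogenetic proteins (BMPs), transforming growth factor beta (TGF-beta) and activins was followed in mouse pancreatic islets through 49 genes, chosen by their gene symbols among the 25611 rows of the count table. The first row of each symbol was used. The genes comprised 10 secreted antagonists, matrix modulators and a protease, 15 ligands, 12 receptors and co-receptors, 8 Smads and 4 Id genes. Islets are the clusters of hormone-secreting endocrine cells of the pancreas. RNA was sequenced from hand-picked islets of 4-week-old mice, from 4 controls (Glis3fl/fl, the floxed allele with no Cre) and from 3 labelled knockouts that added a Cre driver to that allele (Pdx1-Cre;Glis3fl/fl). Glis3 is a zinc finger transcription factor, and the comparison asks what its deletion in the pancreatic lineage marked by Pdx1 does to these genes. No group carried the driver alone, so an effect of Pdx1-Cre cannot be told apart from an effect of the deletion. Glis3 binding was mapped in a single sample from Glis3-eGFP mice, at 8 weeks of age, by precipitating the tagged protein from islet chromatin with a GFP antibody.

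Ligands of this family are secreted dimers that bring together type I and type II receptor kinases at the cell surface. TGF-betas and activins act mainly through Smad2 and Smad3, BMPs act mainly through Smad1, Smad5 and Smad9, and both groups of Smads join Smad4 to enter the nucleus, where the Id genes are direct BMP targets. Noggin, chordin, gremlins and follistatins bind ligands outside the cell and keep them from their receptors, and the inhibitory Smad6 and Smad7 act inside it. In the pancreas these signals are known for roles in the choice between endocrine and exocrine fate, in beta cell maturation and in fibrosis.

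The RNA libraries held 18297697 to 48054551 counts in controls and 12099365 to 22578480 in labelled knockouts, so raw counts of the groups differ in depth. Glis3 itself checks the labels poorly. Its CPM (counts scaled to a common library size with TMM factors, as throughout) were 37.8 ± 6.95 (SD, n = 4) in controls and 54.2 ± 3.11 (SD, n = 3) in the labelled knockouts (log2 fold change 0.52, adjusted p = 0.0257, edgeR quasi-likelihood test with Benjamini-Hochberg adjustment). Which exon the deletion removes is not stated in the labels, and counts summed over the whole gene cannot show its loss. The groups are therefore called controls and labelled knockouts. Of 8 beta cell markers, 5 were lower in the labelled knockouts and 3 (Ucn3, G6pc2 and Pdx1) did not pass; their summed CPM, most of it from Ins1 and Ins2, ran from 102000 to 200800 against 308900 to 522200 in controls. Both gamma cell markers were lower (sums of 7843 to 14330 in controls and 1918 to 2561 in labelled knockouts), while the sums of alpha (3 of 8 markers higher and 3 lower) and delta markers (2 of 6 higher) overlapped. Summed markers of stellate and mesenchymal cells (541.6 to 661.7 in controls, 770.8 to 988.3 in labelled knockouts; 3 of 12 markers higher at adjusted p under 0.05, Pdgfra at 0 in a library) and of duct (411.8 to 465.6, then 1057 to 1311; 2 of 8 tested markers higher, Krt19, Cftr and Onecut1 at 0 in 1 or more libraries) did not overlap between the groups. Nor did those of myeloid and lymphoid cells (106.5 to 135.3, then 191.2 to 201.8; 1 of 7 tested markers higher), endothelium (767.7 to 858.3, then 858.7 to 1063; 0 of 10) or Schwann and neural cells (184.3 to 246.3, then 269.8 to 287.7; 1 of 8 higher and 1 lower). Acinar sums overlapped, from 641.2 to 3814 in controls and from 2061 to 11510 in labelled knockouts, with the highest in labelled knockout 2. The islets are a mixture, and fewer cells of a type cannot be told apart from less RNA per cell. The part of these marker differences in the results below was not tested. Fits with a marker mean as a covariate are given below as alternatives. The summed mesenchymal markers did not overlap between the groups, so a fit with their mean cannot tell marker level and group apart. Xist, the X-inactivation transcript, gave more than 100 counts in 2 of 4 controls and 2 of 3 labelled knockouts, and a fit with Xist status as a covariate called the same 5 members as below.

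Of the 49 genes, 46 had enough counts to be tested. Nog, Smoc1, Bmp1 and Bmp3 were higher and Tgfbr1 was lower in the labelled knockouts at an adjusted p under 0.05, which is 10.9% of those tested against 14.0% of all 14529 tested genes. By direction, 8.73% of all tested genes were higher and 5.25% lower. The other 41 members did not pass, and 10 of the 46 were under 0.05 before adjustment, as were 28.2% of all tested genes. The groups did not overlap for 9 of the 46 members (19.6%, against 26.6% of all tested genes): 5 higher in the labelled knockouts (14.0% of all tested genes) and 4 lower (12.6%). The median log2 fold change of the members was 0.05 and that of all tested genes was 0.0065. So the share of members that changed was not above that of the transcriptome, and the changes lay in a few genes, 3 of them among the 7 tested antagonists, modulators and protease. The member list was chosen with earlier results of these data known, so this grouping is a description and not a test. The 95% interval lay within a 2-fold change in both directions for 24 of 46 members (52.2%, against 62.8% of all tested genes). For the uncalled members outside this count, the interval reached past a 2-fold change.

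**Figure D1:**
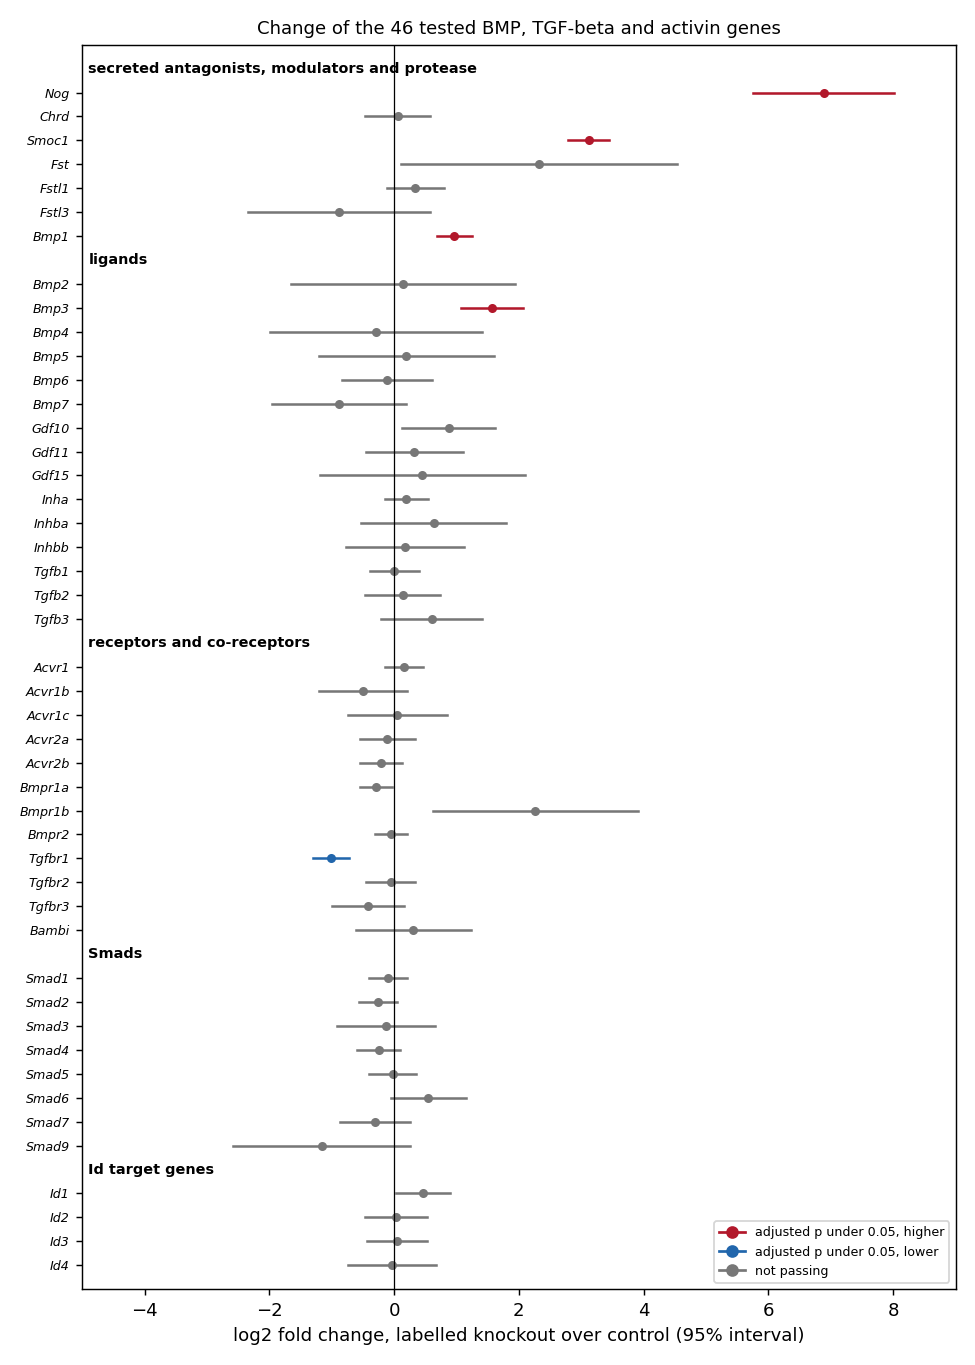
Log2 fold change of the 46 tested members in labelled knockout over control islets, with 95% intervals, grouped by role; red and blue points passed an adjusted p of 0.05 (edgeR). Nog and Smoc1 stand furthest to the right at 6.89 and 3.12, Tgfbr1 is the lower call at -1.02, and the intervals of the 4 Id genes lie within a 2-fold change.

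Noggin (Nog), a secreted protein that binds BMP2, BMP4 and BMP7 and blocks their contact with receptors, was almost absent from control islets and present in every labelled knockout. Controls 1 to 4 held 1, 5, 0 and 5 Nog counts, which is 0.0348, 0.0972, 0 and 0.239 CPM. Labelled knockouts 1 to 3 held 115, 376 and 230 counts, or 8.54, 16.2 and 10.2 CPM. The lowest labelled knockout lay far above the highest control. The summed counts, 721 against 11, gave a ratio per effective library size of 130 (95% exact Poisson interval 72.2 to 262, counting error only). The fitted log2 fold change was 6.89 ± 0.52 (SE; adjusted p = 1.61e-06, edgeR quasi-likelihood test with Benjamini-Hochberg adjustment), and its size depends on how the test treats the few control counts. Nog passed in all 18 alternative fits, at log2 values from 6.48 to 7.69.

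Smoc1, a secreted calcium-binding matrix protein that restrains BMP signalling, was low but measurable in controls, at 6.69, 6.13, 5.66 and 4.79 CPM. In the labelled knockouts it stood at 48.9, 47.9 and 55.8 CPM, a narrow band with no overlap. It was 8.70-fold higher, a log2 fold change of 3.12 ± 0.15 (SE; adjusted p = 5.06e-08, edgeR). Its range over the 18 alternatives was 3.02 to 3.27, and it passed in each. The related gene Smoc2 gave 9 counts over the controls and 11 over the labelled knockouts, all 11 of them in labelled knockout 2, too few to test.

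Bmp1 is named a BMP but is a metalloprotease, which cleaves chordin and the propeptides of collagens. Its CPM were 86.2, 104.8, 89.3 and 89.5 in controls and 163.4, 168.9 and 210.3 in labelled knockouts, so every labelled knockout was above every control. It was 1.96-fold higher, a log2 fold change of 0.97 ± 0.13 (SE; adjusted p = 0.000169, edgeR), and it passed in all 18 alternatives. Its substrate chordin (Chrd), itself a BMP-binding antagonist, stood between 5.82 and 9.13 CPM in controls and between 6.26 and 8.91 in labelled knockouts, with a log2 fold change of 0.06 (95% interval -0.47 to 0.58). Chrd overlaps Thpo on the other strand, and which strand the counting used is not stated.

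The follistatins bind activins and related ligands. Follistatin (Fst) was at 0.453, 0.117, 0.183 and 0.144 CPM in controls and at 0, 2.46 and 0.886 CPM in labelled knockouts. Labelled knockouts 2 and 3 were above every control and labelled knockout 1 had no count, so the groups overlapped and the log2 value of 2.33 did not pass (adjusted p = 0.157, edgeR; 0.0337 to 0.83 over the alternatives). Without labelled knockout 1 the log2 value was 2.88 (adjusted p = 0.0337), and without labelled knockout 2 it was 1.06 (adjusted p = 0.619). Fstl1, a secreted glycoprotein of the follistatin family, had a log2 fold change of 0.34 (adjusted p = 0.332, edgeR) and ran from 15 to 20.2 CPM in controls and from 15.4 to 30.2 in labelled knockouts. Fstl3, an activin-binding follistatin-like protein, had -0.88 with an interval from -2.34 to 0.58, and -1.76 without labelled knockout 1 (adjusted p = 0.438 and 0.127, edgeR). Chrdl1, a chordin-like BMP antagonist, had 32 counts over the controls and 4 over the labelled knockouts (mean 0.282 and 0.099 CPM) and was not tested. Gremlin (Grem1), another BMP antagonist, had 0 counts in all 7 libraries, which allows at most 0.0255 CPM over the pooled controls and 0.0507 over the pooled labelled knockouts (3 counts each, counting error only).

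**Figure D2:**
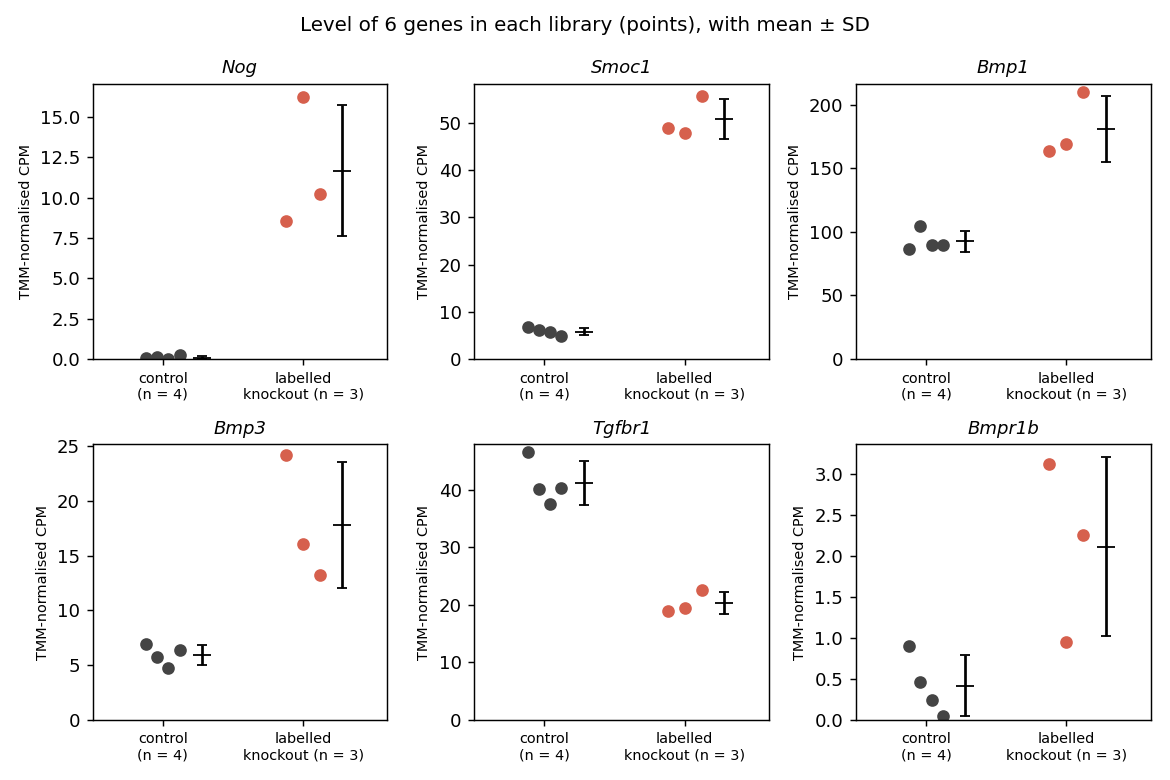
Level in CPM of the 5 called members and of Bmpr1b in each library (points; 4 controls and 3 labelled knockouts), with the mean ± SD of each group beside them; points are spread sideways only to keep them apart. Nog, Smoc1, Bmp1 and Bmp3 in the labelled knockouts lie above every control, and Tgfbr1 lies below every control.

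Among the 15 ligands, Bmp3 passed the test. BMP3 is an atypical family member that binds type II receptors and dampens signalling by other BMPs in bone. Its controls were at 6.93, 5.7, 4.75 and 6.36 CPM and its labelled knockouts at 24.2, 16 and 13.2 CPM. The groups did not overlap, the labelled knockouts were more spread than the controls, and Bmp3 was 2.98-fold higher (log2 fold change 1.57 ± 0.23 (SE), adjusted p = 0.00041, edgeR). Bmp3 passed in 17 of 18 alternatives. With the mean of the mesenchymal markers as a covariate its log2 value was 0.93 and its adjusted p was 0.279, the highest over the alternatives, whose lowest was 2.75e-08.

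Gdf10, also called BMP3b and the closest relative of Bmp3, had 9.54, 5.64, 3.53 and 4.07 CPM in controls and 14.4, 10.7 and 6.64 CPM in labelled knockouts. Control 1 lay above labelled knockout 3, so the groups overlapped, and the log2 value of 0.87 ± 0.34 (SE) did not pass (adjusted p = 0.112, edgeR). It passed without control 1 (log2 1.24, adjusted p = 0.0223) and in none of the other 17 alternatives, whose highest adjusted p was 0.495.

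The activin and inhibin subunits gave no call. Inha, the alpha subunit that turns an activin into an inhibin, was at 55.5, 82.4, 96.1 and 84.6 CPM in controls and 87.5, 100.5 and 85.3 CPM in labelled knockouts, and its interval of -0.15 to 0.54 lay within a 2-fold change. Inhba, the beta A subunit, ran from 0.627 to 1.3 CPM in controls and from 1.04 to 2.3 in labelled knockouts (log2 0.64, interval -0.53 to 1.80). Inhbb, the beta B subunit, ran from 1.64 to 2.01 CPM in controls and from 1.33 to 2.6 in labelled knockouts (log2 0.17).

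For the TGF-beta ligands the fits differed in width. Tgfb1 was at 18.2, 18.5, 15.6 and 12.9 CPM in controls and at 17, 18.4 and 13.7 CPM in labelled knockouts, a log2 value of 0.0054 with an interval from -0.38 to 0.39. Tgfb2 had 0.14 (interval -0.46 to 0.74). Tgfb3 had 0.60 (interval -0.20 to 1.41), with 7.43 CPM in labelled knockout 2 and 2.39 to 3.59 CPM in all controls. None of the 3 passed (adjusted p 0.989, 0.802 and 0.323, edgeR).

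The remaining ligands were thinly counted. Bmp2, a classical BMP that noggin binds, had 0 counts in labelled knockout 1 and 1.9 and 0.93 CPM in labelled knockouts 2 and 3, against 0.732 to 1.1 CPM in controls; its log2 value of 0.15 became -0.81 without labelled knockout 2. Bmp4, another ligand of noggin, totalled 68 counts in controls and 28 in labelled knockouts (log2 -0.29, interval -1.99 to 1.41). Bmp7, also bound by noggin, ran from 1.95 to 3.45 CPM in controls and from 0.817 to 2.59 in labelled knockouts (log2 -0.88, interval -1.95 to 0.19, adjusted p = 0.27, edgeR). Its log2 value was -1.62 without labelled knockout 2 (adjusted p = 0.051) and -1.55 with the acinar covariate (0.0788), in a range of 0.051 to 0.725. Bmp5, Bmp6, Gdf11 and the stress-induced Gdf15 had log2 values of 0.20, -0.12, 0.33 and 0.46, with intervals that all held 0, and Gdf15 stood at -0.50 without labelled knockout 1. Bmp6 overlaps Txndc5 and 4930579J19Rik on the other strand, with the same limit as Chrd. The same holds for Fstl3 (Prss57 and Bc1), Acvr2a (Orc4), Bmp4 (Gm15217), Acvr1c (Gm13544), Id4 (A330033J07Rik) and Smoc2 (4930474M22Rik). In all, 12 of the 15 ligands (80%) had a positive log2 fold change and 3 a negative one, beside 50.5% positive of all tested genes. Of the 15, 14 did not pass, and 4 of the 15 intervals lay within a 2-fold change. With the mesenchymal covariate Gdf10, Gdf11, Gdf15, Inhbb, Tgfb1 and Tgfb2 turned negative and Bmp6 turned positive.

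In the receptors the call was Tgfbr1, the type I receptor kinase through which TGF-beta phosphorylates Smad2 and Smad3. Controls stood at 46.5, 40.2, 37.5 and 40.3 CPM and labelled knockouts at 18.9, 19.4 and 22.6 CPM. Every labelled knockout was below every control. Tgfbr1 was 2.02-fold lower, a log2 fold change of -1.02 ± 0.13 (SE; adjusted p = 0.000169, edgeR), and it passed in all 18 alternatives at log2 values from -1.13 to -0.86. Its partners did not pass. Tgfbr2, the type II receptor that activates it, had a log2 value of -0.05 (interval -0.45 to 0.34), and the co-receptor betaglycan, Tgfbr3, had -0.42 (interval -0.99 to 0.16).

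Bmpr1b, a type I BMP receptor, came nearest to the threshold. It had 0.906, 0.467, 0.244 and 0.0479 CPM in controls and 3.12, 0.95 and 2.26 CPM in labelled knockouts, without overlap but with labelled knockout 2 just above control 1, and a log2 value of 2.92 without that control. Its log2 fold change was 2.27 ± 0.76 (SE), the interval ran from 0.62 to 3.91 and the adjusted p was 0.0644 (edgeR). It passed in 5 of 18 alternatives, among them DESeq2 (0.0218), and the adjusted p ran from 0.0218 to 0.786. Bmpr1a, also a type I BMP receptor, had lower values in the labelled knockouts: 71.1, 65, 70.1 and 67.5 CPM in controls against 47.3, 60 and 60.1 CPM in labelled knockouts. The groups did not overlap, yet the log2 value of -0.29 ± 0.12 (SE) did not pass after adjustment (adjusted p = 0.122, edgeR). The type II receptor Bmpr2 was close to level, at -0.05 (interval -0.31 to 0.21).

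Acvr1, a type I receptor that BMPs also use, and the type II receptors Acvr2a and Acvr2b had log2 values of 0.16, -0.11 and -0.21 with intervals within a 2-fold change. Acvr1b, the activin type I receptor, had -0.50 (interval -1.20 to 0.21). Acvr1c, also known as ALK7 and a receptor for activin B and Nodal, was at 5.12, 9.32, 4.69 and 5.7 CPM in controls and at 3.94, 4.36 and 11 CPM in labelled knockouts, where 1 library decided the mean: the log2 value was 0.05 in all libraries and -0.62 without labelled knockout 3. Bambi, a membrane protein shaped like a type I receptor without its kinase that damps the pathway, was spread in both groups, from 62.5 to 143.1 CPM in controls and from 62.9 to 142.2 in labelled knockouts.

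None of the 8 Smads passed the edgeR test, 0 were under 0.05 before adjustment, and DESeq2 called 0. Smad2, which carries the TGF-beta and activin signal, had 29.4, 24.8, 23.9 and 25.2 CPM in controls and 19.9, 23.6 and 21 CPM in labelled knockouts, without overlap, and a log2 value of -0.26 (interval -0.57 to 0.04, adjusted p = 0.246, edgeR). Smad9, a BMP-responsive Smad, had 1.53, 0.759, 0.852 and 1.1 CPM in controls and 0.297, 0.475 and 0.62 CPM in labelled knockouts. Those groups did not overlap either, but 29 counts over the labelled knockouts left an interval from -2.58 to 0.26 around -1.16 (adjusted p = 0.276, edgeR). Smad3, the partner of Smad2, had -0.13 (interval -0.92 to 0.66). Smad1 and Smad5, which carry BMP signals, had -0.09 (interval -0.40 to 0.21) and -0.02 (interval -0.40 to 0.35). Smad4, the shared partner, stood at 29.2, 48.3 and 32.5 CPM in the labelled knockouts against 41.3 to 46.3 CPM in controls. Labelled knockout 2 alone was above the controls, and without it the log2 value went from -0.24 to -0.50 and passed (adjusted p = 0.0227, edgeR; 0.0227 to 0.858 over the alternatives). The inhibitory Smads had log2 values of 0.55 (Smad6, interval -0.06 to 1.15) and -0.30 (Smad7, interval -0.86 to 0.25). With TMM scaling 7 of 8 Smads had a negative value, while 50.5% of all tested genes had a positive one. With library size alone, which moved the median of all genes from 0.0065 to 0.18, 4 of 8 Smads had a negative value.

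The Id genes encode helix-loop-helix proteins that block other factors of that class, and Id1, Id2 and Id3 are the usual readout of BMP signalling. Id1 was at 9.2, 13.4, 13.9 and 11.3 CPM in controls and 18, 12.8 and 18.6 CPM in labelled knockouts. Labelled knockouts 1 and 3 lay above every control and labelled knockout 2 lay within them, and the log2 value of 0.46 (interval 0.03 to 0.89) did not pass (adjusted p = 0.15, edgeR). Id2 was at 8.29, 8.17, 11.1 and 9.86 CPM in controls and 6.61, 10.1 and 11.7 CPM in labelled knockouts (log2 0.03, interval -0.47 to 0.52). Id3 and Id4 had 0.05 (interval -0.44 to 0.53) and -0.03 (interval -0.73 to 0.67). All 4 intervals lay within a 2-fold change in both directions.

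A further 99 genes of the same pathways were listed, of which 68 could be tested. In the labelled knockouts 9 were higher and 3 lower, 17.6% of those tested, beside 14.0% of all tested genes. With the mesenchymal marker mean as a covariate Fstl5 alone passed, while the calls over all genes fell to 499 higher and 127 lower. Over the 18 alternatives, this fit included, the log2 value of Hey1 ran from 1.46 to 1.96. That of Ltbp2 ran from -1.93 to -1.52 and that of Twsg1 from -0.76 to -0.48. Nbl1 ran from 0.49 to 1.14, Pcsk6 from 0.31 to 0.90 and Tgfbi from 0.96 to 1.93. Cer1 ran from -7.75 to -4.18 over the 17 alternatives that held it and passed in 16. Ltbp3 ran from 0.13 to 0.69 and passed in 15 of 18, and Bgn ran from 0.14 to 0.83 and passed in 14 of 18. The calls lay in 2 groups, extracellular regulators (6 higher and 3 lower of 26 tested) and target genes (3 higher and 1 lower of 13, with Ltbp2 in both lists), and there were none among 7 receptors, 20 intracellular regulators and 3 ligands. With the replicate block 10 were higher and 4 lower, the same 12 with the receptor Eng and the intracellular regulator Xiap.

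Fstl5, a follistatin-like gene of little-known function, was at 3, 2.49, 2.86 and 1.82 CPM in controls and 16.1, 18.4 and 22.6 CPM in labelled knockouts, 7.48-fold higher without overlap (log2 2.90 ± 0.23 (SE), adjusted p = 2.13e-06, edgeR). Nbl1, a secreted BMP antagonist of the same family as gremlin, was between 17.8 and 23.3 CPM in controls and between 32 and 45.4 CPM in labelled knockouts (log2 0.96, adjusted p = 0.000735, edgeR). Cer1, Cerberus, an antagonist of Nodal and BMPs, moved down. It had 1.18, 1.19, 0.913 and 0.861 CPM in controls and 0, 0 and 0.0886 CPM in labelled knockouts, where 2 counts remained against 128 (log2 -4.78, interval -7.06 to -2.50, adjusted p = 0.00792, edgeR). Twsg1, twisted gastrulation, which works with chordin on BMPs, fell, with controls between 300 and 329 CPM and labelled knockouts between 188.5 and 226.8 CPM (log2 -0.64, adjusted p = 0.00289, edgeR).

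Pcsk6, a proprotein convertase that matures family ligands, was higher by a log2 value of 0.74, and Ltbp3, which holds latent TGF-beta in the matrix, by 0.52. Ltbp2, a related matrix protein, was lower by a log2 value of -1.69. Decorin (Dcn) and biglycan (Bgn), matrix proteoglycans that bind TGF-beta, were higher by 0.92 and 0.64. Dcn is also 1 of the 12 mesenchymal markers above, it passed in 12 of 18 alternatives, and with the mesenchymal covariate its log2 value was -0.10. Among the target genes, Hey1, a transcriptional repressor that answers to Notch as well as BMPs, was at 1.95 to 3.21 CPM in controls and 6.48 to 8.17 CPM in labelled knockouts (log2 1.57). Tgfbi, a TGF-beta-induced matrix protein, had 2.13 to 6.03 CPM and then 10.6 to 11.8 CPM (log2 1.58), and Klf10, a TGF-beta-inducible early gene, had 16.1 to 20.9 CPM and then 27.7 to 45.1 CPM (log2 0.91). The adjusted p of these 8 genes ran from 0.00288 to 0.0221 (edgeR). The TGF-beta targets Ctgf and Pmepa1 did not pass, with log2 values of 0.05 and 0.41.

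**Figure D3:**
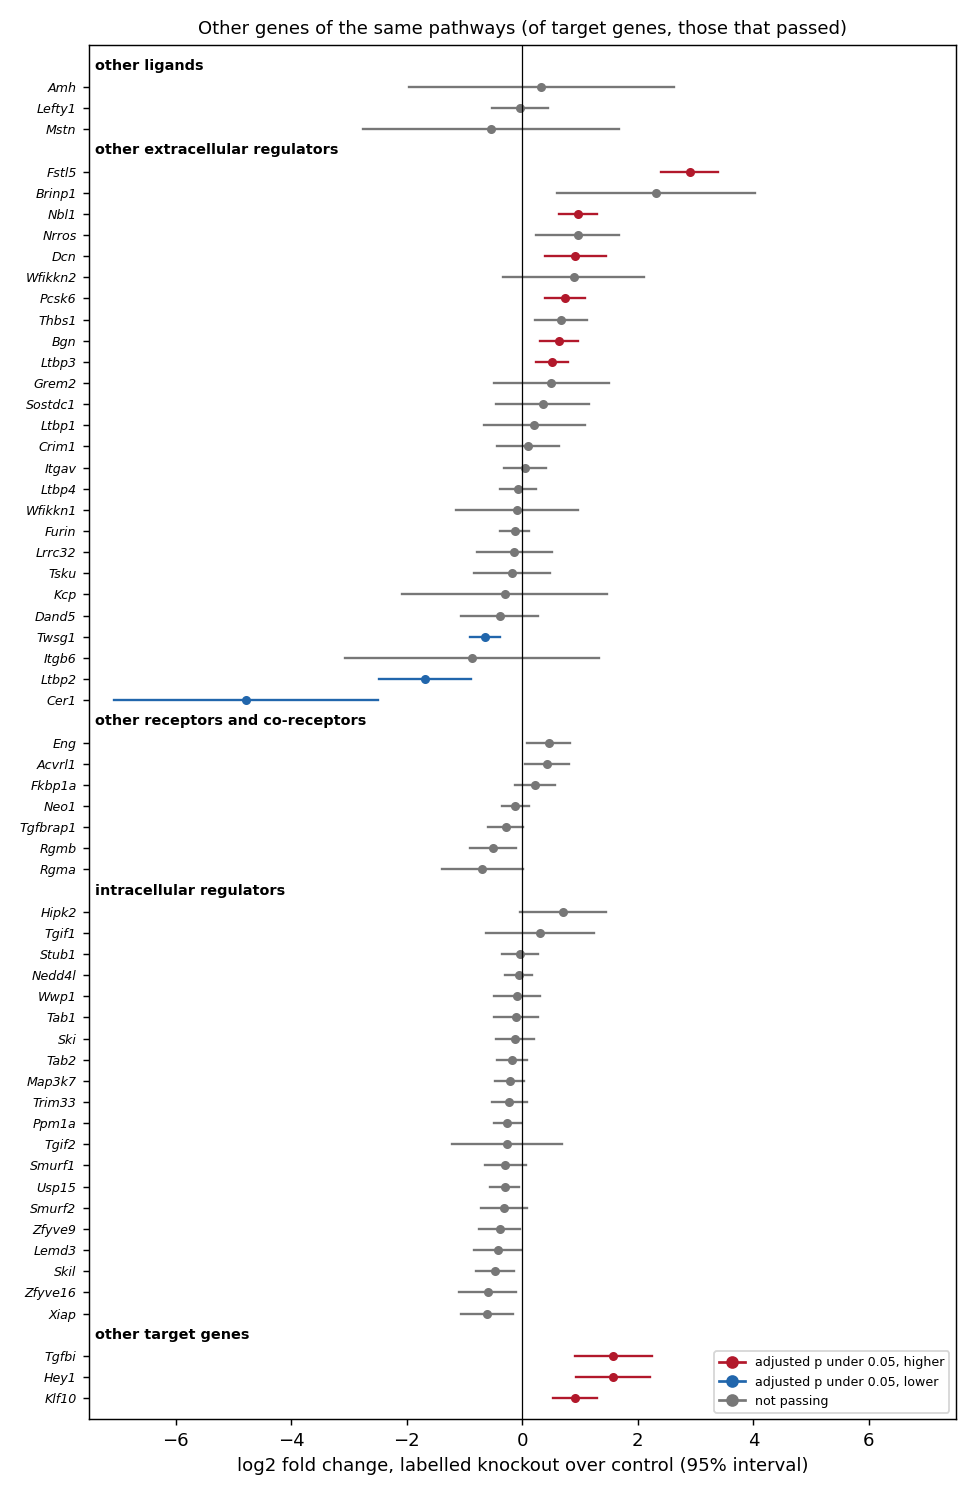
Log2 fold change, labelled knockout over control, with 95% intervals, of tested pathway genes listed beside the members, grouped by role, with target genes shown only where they passed; red and blue mark genes that passed an adjusted p of 0.05 (edgeR). Fstl5 at 2.90 and Cer1 at -4.78 are the outermost calls, and the 20 intracellular regulators hold none.

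The Glis3 peak list held 21254 peaks of 200 bp. A peak midpoint lay within 10 kb of the 5′ end of 41 of the 49 members, and of 41 of the 46 tested members (89.1%), against 80.5% of all tested genes. Within 1 kb the counts were 36 of 46 (78.3%) and 71.2% of all tested genes. These shares are near the background, since most genes tested in these islets had a peak. All 12 receptors, all 8 Smads and all 4 Id genes had a peak within 10 kb, as had 12 of 15 ligands and 5 of 10 antagonists, modulators and protease. The 8 members without were Chrdl1, Grem1, Smoc2, Fst, Fstl3, Bmp4, Bmp5 and Bmp6, of which the first 3 had too few counts to test. Of the 57 peaks within 10 kb of a member, 21 lay upstream and 36 downstream of the 5′ end, and 46 lay within 1 kb. For Inha, Tgfb1, Tgfb3 and Acvr1 a peak lay nearest to another gene (Obsl1, B9d2, Ift43 and Upp2).

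Each of the 5 called members had a peak within 1 kb, as had 31 of the 41 that were not called (75.6%). In build mm10 coordinates, the Nog peak (chr11:89301856-89302055) lay 603 bp downstream of the 5′ end, inside the gene span on the minus strand (chr11:89300638-89302559). The Smoc1 peak (chr12:81026775-81026974) lay 66 bp downstream, across the 5′ end of the gene (chr12:81026808-81186414, plus strand). Bmp1, on chromosome 14, had peaks 347 bp upstream and 397 and 6845 bp downstream, and Bmp3, on chromosome 5, had a peak 730 bp downstream. Tgfbr1 (chr4:47353222-47414924, plus strand) had a peak 44 bp upstream (chr4:47353078-47353277) and another 538 bp downstream. Whether a peak falls in an exon or an intron was not analysed here. Members that rose and the member that fell thus both had peaks close to their starts. Over all tested genes, 72.2% of those higher, 90.2% of those lower and 80.7% of those not called had a peak within 10 kb.

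**Figure D4:**
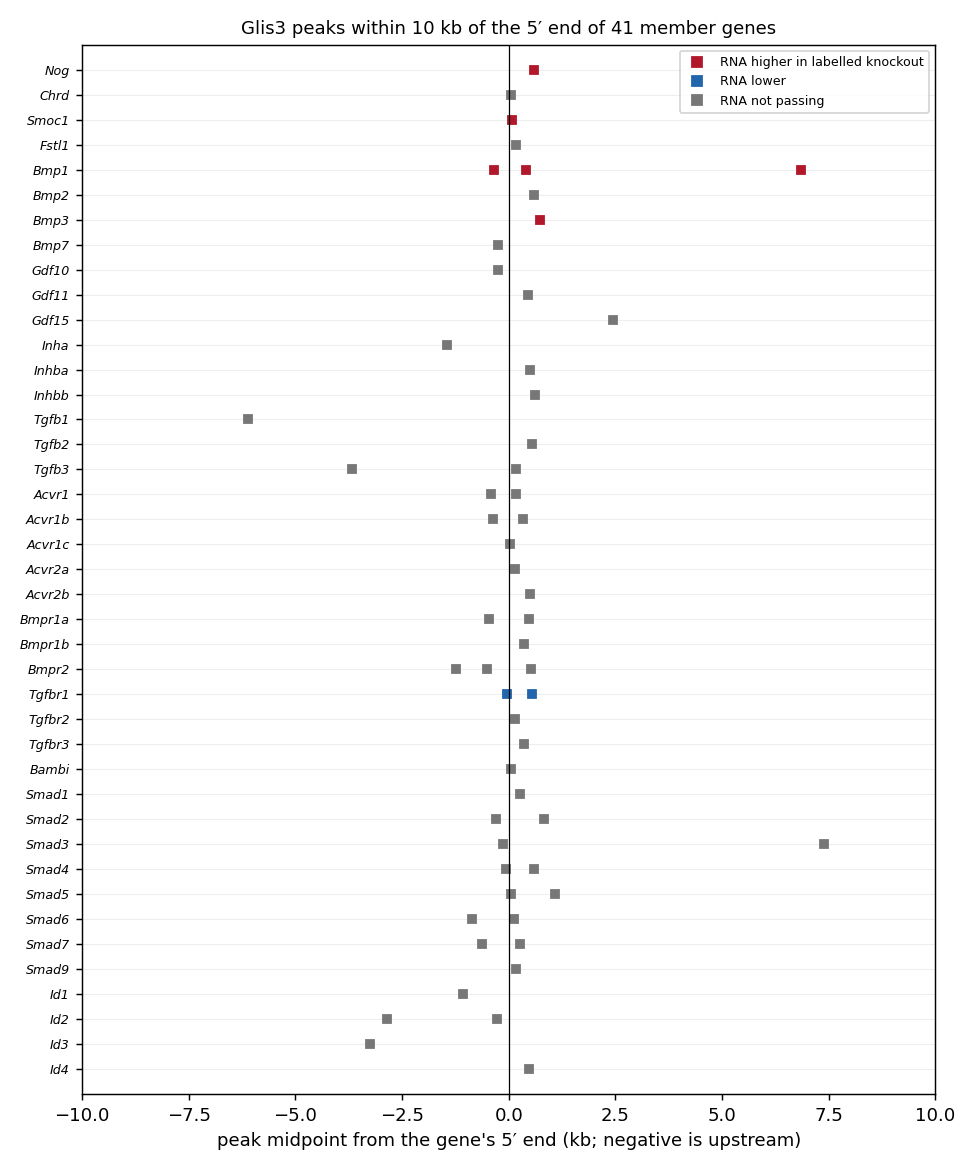
Distance of Glis3 peak midpoints, in kb from the 5′ end of each member along its direction of transcription (negative is upstream), for the 41 members with a peak within 10 kb. Most points, 46 of 57, lie within 1 kb, for called and uncalled members alike.

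Promoter sequence could be matched for 33 of the 49 members in RefSeq (build GRCm38.p6; 40 windows from 250 bases before to 50 after a start). Nog, Smoc1, Bmp1 and Bmp3 were among the 16 not matched. The member windows were rich in G and C, with a median of 66.5% and 26 CpG dinucleotides, against 52.7% and 7 over all 32851 windows. The core of the described Glis3 site, TGGGGGGT on either strand, was in 0 of the 40 windows and in 1.53% of all windows. GGCGCC, the core of the BMP response element described at Id genes, was in 12 of 40 (30%) and in 11.9% of all windows, and in 2 of the 4 windows of Id2, Id3, Id4 and Smad6. It is the same on both strands and has no overlap with the other motif. It holds only G and C, in which the member windows were richer, and the part of that in its share was not tested. The 12 windows include overlapping windows of Smad5. A match is a run of letters and not evidence of binding.

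The 250 bases before the start are given below for 4 members whose peak reaches into them, with the bases under the Glis3 peak in capitals. Tgfbr1 (chr4:47352972-47353221, plus strand) is a called member. Acvr1c (chr2:58357759-58358008, minus strand), Smad3 (chr9:63757995-63758244, minus strand) and Id2 (chr12:25096093-25096342, minus strand) were not called and show the same proximity in a receptor, a Smad and a target gene. Each is written 5′ to 3′ along the gene.
Tgfbr1: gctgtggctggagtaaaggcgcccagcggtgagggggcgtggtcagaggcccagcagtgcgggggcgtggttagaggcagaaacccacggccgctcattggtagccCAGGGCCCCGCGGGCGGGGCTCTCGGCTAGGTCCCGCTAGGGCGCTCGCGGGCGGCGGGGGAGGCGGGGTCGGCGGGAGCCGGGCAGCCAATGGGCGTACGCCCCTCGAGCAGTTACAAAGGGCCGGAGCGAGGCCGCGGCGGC
Acvr1c: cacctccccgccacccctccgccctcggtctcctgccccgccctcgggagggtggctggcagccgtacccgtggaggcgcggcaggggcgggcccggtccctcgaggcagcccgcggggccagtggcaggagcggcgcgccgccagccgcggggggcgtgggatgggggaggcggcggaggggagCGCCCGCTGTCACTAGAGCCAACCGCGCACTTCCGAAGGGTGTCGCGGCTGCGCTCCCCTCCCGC
Smad3: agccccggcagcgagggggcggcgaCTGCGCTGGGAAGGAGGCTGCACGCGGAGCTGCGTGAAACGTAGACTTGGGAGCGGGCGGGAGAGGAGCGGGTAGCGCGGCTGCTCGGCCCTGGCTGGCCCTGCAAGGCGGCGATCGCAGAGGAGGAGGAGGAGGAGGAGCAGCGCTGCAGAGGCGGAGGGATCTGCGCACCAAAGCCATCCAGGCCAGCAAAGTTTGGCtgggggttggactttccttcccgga
Id2: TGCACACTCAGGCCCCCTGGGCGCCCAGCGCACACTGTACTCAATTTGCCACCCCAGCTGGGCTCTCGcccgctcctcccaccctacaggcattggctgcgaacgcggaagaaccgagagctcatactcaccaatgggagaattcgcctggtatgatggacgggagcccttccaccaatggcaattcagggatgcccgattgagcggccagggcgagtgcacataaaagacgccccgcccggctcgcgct
The capitals cover 144, 65, 200 and 68 bases in that order, so the whole Smad3 peak fits in the window and the Id2 peak enters it from the far end. The Tgfbr1 and Acvr1c peaks cover the start and the Smad3 and Id2 peaks lie upstream of it. Beside these peaks the RNA was 2.02-fold lower at Tgfbr1, and the log2 values of 0.05, -0.13 and 0.03 at Acvr1c, Smad3 and Id2 did not pass.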

How the data were processed

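The members and all gene lists were chosen with earlier results of these data known. The authors deposited raw counts, whole numbers per gene with no normalisation, with symbols, Entrez identifiers and coordinates per the file headers. STAR 2.5, featureCounts 1.5.0-p1 of Subread and build mm10 are named per the submitters' processing notes, as are HOMER 4.9.1 and Bowtie 1.2, without roles. No source used here gives the strand option or the annotation. The peaks were 200 bp intervals with no score, deposited by the authors. The input library was not analysed here.

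Genes were kept with filterByExpr, scaled with TMM factors and compared with edgeR 4.0.16 (robust quasi-likelihood F test, R 4.3.3), with Benjamini-Hochberg adjustment over 14529 genes and a threshold of 0.05. The SE is the absolute log2 fold change over the square root of F, and intervals are 95%. CPM are counts per 1e+06 of the scaled library. The design text speaks of separate mice. Counts of 2 libraries of a group differed beyond sampling noise in every pair (chi-square per degree of freedom 23.4 to 95.4), so none was a copy. The fit was tested on simulated data. Same-numbered libraries deviated together (r = 0.173, 0.117 and 0.117 over genes, above a limit of 0.1) and shared Xist status. Control 4 and labelled knockout 3 had 0.157, so these values do not settle whether the numbers pair the libraries. The main fit was unpaired. A block for the replicate number was run as an alternative, in which control 4 had no partner.

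The comparison was repeated with DESeq2 1.42.0, with limma-voom (limma 3.58.1), with RLE factors or library size alone in place of TMM, with no filter or a minimum of 1 CPM in 3 libraries, with a replicate block, without the 10 most abundant genes or each library, with acinar or mesenchymal marker means as covariates (mean of log2(CPM + 0.5)), at an adjusted p under 0.01 and, for peaks, with the gene nearest to each peak or with windows of 1, 50 and 100 kb. Xist status as a covariate was added after seeing the data. Peak distances run from the midpoint to the table's 5′ end of a gene. Of 24555 genes matched to RefSeq GRCm38.p6 by Entrez identifier, 78.1% shared a start or end. Named were Nog, Smoc1, members that passed, did not overlap or were near the threshold, and called genes of the other pathway list, while members named for a peak alone are given by ranges or fold changes.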

Additional observations from a re-analysis of the deposited data

Results flagged for a closer look

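Among the controls of the 46 tested members, a single library stood apart from the other controls in 2 cases, by Dixon's criterion for 4 values (the gap to the nearest library against the whole range). Smad6, an inhibitory Smad, was at 5.49 CPM in control 2 and between 3.41 and 3.76 CPM in the other controls. Id3, a BMP target, was at 25 CPM in control 3 and between 15.8 and 16.1 CPM in the others. Chance picks out about 1 in 20 groups at this level, and 46 were examined. Neither gene passed the test between the groups, with all libraries or with each left out.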

How the results depend on the processing

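The 5 members called stayed called under every alternative run but 1: Bmp3 did not pass with the mesenchymal marker mean as a covariate. A block for the replicate number gave the same 5 members (4 higher and 1 lower; Nog 7.69 on the log2 scale), with 803 genes lower and 1385 higher over the table, and changed no other member's call; among the other pathway genes it added Eng and Xiap (10 higher, 4 lower). With Xist status as a covariate, chosen after seeing the data, 863 were lower and 1445 higher.

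Over all tested genes (763 lower and 1268 higher), 324 were lower with library size alone (1854 higher), 460 with the acinar covariate and 127 with the mesenchymal covariate, where 499 were higher. At an adjusted p under 0.01, 336 were lower and 731 higher. Leaving out each library gave 541 to 825 lower and 934 to 1142 higher, 1 to 2 members lower (2 without labelled knockout 2, with Smad4) and 4 to 6 members higher. Of the other pathway genes (3 lower, 9 higher), DESeq2 called 5 lower and the mesenchymal covariate 0 lower and 1 higher, and leaving out each library gave 3 to 5 lower and 6 to 11 higher. Members with a peak numbered 41 within 10 kb, 36 within 1 kb, 43 within 50 kb, 46 within 100 kb and 39 by nearest gene.

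Changes of direction were found in members that did not pass. With the mesenchymal marker mean as a covariate the log2 value turned for Chrd -0.27, Bmp6 0.18, Gdf10 -0.68, Gdf11 -0.16, Gdf15 -0.59, Inhbb -0.21, Tgfb1 -0.58, Tgfb2 -0.43, Acvr1 -0.0471, Tgfbr2 0.16 and Bambi -0.081. With limma-voom the log2 value turned for Bmp2 -0.62, Bmp5 -0.026, Tgfb1 -0.0359 and Acvr1c -0.13. With the replicate block the log2 value turned for Bmp2 -0.46, Bmp5 -0.20, Tgfb1 -0.0929, Acvr1c -0.0961, Id3 -0.0314 and Id4 0.0177. With the acinar marker mean as a covariate the log2 value turned for Bmp2 -0.57, Bmp5 -0.15, Tgfb1 -0.019, Tgfb2 -0.13, Acvr1c -0.0218, Tgfbr2 0.0348 and Smad3 0.0167. With library size alone the log2 value turned for Bmp6 0.0326, Acvr2a 0.0272, Bmpr2 0.12, Tgfbr2 0.0985, Smad1 0.0787, Smad3 0.044, Smad5 0.12 and Id4 0.14. With no filter on low counts the log2 value turned for Tgfb1 -0.0099. With DESeq2 the log2 value turned for Tgfb1 -0.0012. Leaving out the 10 most abundant genes turned Tgfb1 -0.0055. With Xist status as a covariate the log2 value turned for Tgfb1 -0.0486. Leaving out each library gave ranges across 0 for Chrd -0.0952 to 0.21, Fstl1 -1e-04 to 0.52, Bmp2 -0.81 to 0.69, Bmp4 -0.68 to 0.0909, Bmp5 -0.33 to 0.66, Bmp6 -0.34 to 0.0581, Gdf15 -0.50 to 0.87, Inhbb -0.0245 to 0.38, Tgfb1 -0.11 to 0.0902, Tgfb2 -0.11 to 0.29, Acvr1c -0.62 to 0.33, Acvr2a -0.24 to 0.0281, Bmpr2 -0.13 to 0.0178, Tgfbr2 -0.24 to 0.11, Smad3 -0.57 to 0.14, Smad5 -0.15 to 0.12, Id2 -0.18 to 0.22, Id3 -0.14 to 0.25 and Id4 -0.14 to 0.0479. The cause of these changes was not tested.

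The intervals of Nog, Fst, Fstl3, Bmp2, Bmp4, Bmp5, Bmp7, Gdf15, Inhba, Bmpr1b and Smad9 are wider than 2 log2 units; how much of that is low counts and how much is spread between libraries was not tested. With 4 and 3 libraries, the test on simulated counts (14320 genes) recovered 25.8% of the 1.5-fold changes, 46.3% of the 2-fold ones and 86.4% of the 4-fold ones. It called 112 genes, 6.25% of them falsely, while the data gave 2031 calls. The adjusted threshold was thus stricter in the simulation, and its changed genes were drawn from all genes. These shares need not hold for the members, and a member that did not pass may still differ. No library of a group was a copy of another.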

Other observations

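The intracellular regulators of these pathways were tested for 20 genes. Of these, none passed at an adjusted p under 0.05 (edgeR, with 7 under 0.05 before adjustment, beside 28.2% of all tested genes). The log2 fold change was negative in 18 and positive in 2 (10%, beside 50.5% positive of all tested genes). The median was -0.24 beside 0.0065 over all tested genes. With library size alone as the scaling, 13 were negative, 7 were positive and the median was -0.07. The groups did not overlap for 7 of them (35%), all lower in the labelled knockouts, beside 12.6% of all tested genes in that direction and 26.6% in either. Skil, a repressor that binds Smads, was at 23.6, 22.9, 20.8 and 20.9 CPM in controls and 14.7, 14.5 and 18.5 CPM in labelled knockouts (log2 -0.47, adjusted p = 0.0576, edgeR). Xiap, a ubiquitin ligase that also links BMP receptors to a kinase cascade, had -0.61 (adjusted p = 0.0713, edgeR), and Zfyve16, an endosomal adaptor for Smads, had -0.60 (adjusted p = 0.0962, edgeR). DESeq2 and the fit without labelled knockout 3 called Skil and Xiap, and the replicate block called Xiap.

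Further pathway genes had too few counts for a test, and their counts are given without one. Gdf9, a ligand known from the oocyte, had 1, 4, 0 and 1 counts in controls and 10, 27 and 3 in labelled knockouts (mean 0.0401 and 0.681 CPM). Tll1, a protease related to Bmp1, had 4, 1, 1 and 5 counts in controls (mean 0.115 CPM) and none in the labelled knockouts. Skil, Xiap, Zfyve16, Gdf9 and Tll1 were chosen after their values were seen.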
